A study of Homo sapiens with 12 samples.

Results

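E2F1 binding was measured at 5 promoters, those of EZH2, SUV39H1, UBE2T, FAM111A and CDCA4, which were chosen by their E2F1 values as the strongest E2F1 sites of the ChIP-Seq lists. A listed region was counted for a promoter when its summit lay within 2 kb of a set position of the gene in NCBI36, the genome build of the lists. This gave 32 regions of 1636159 in the 8 lists, 13 of them in the E2F1 lists and 19 in the lists of the other factors. The ChIP-Seq part of the study asked where regulators of histone genes bind in a cancer and a normal cell line. Chromatin was precipitated with antibodies against E2F1, CASP8AP2, NPAT or HINFP from hTERT-RPE1 cells, epithelial cells immortalized with hTERT, and from U2OS cells, an osteosarcoma line. Normal rabbit IgG was the control for E2F1, CASP8AP2 and NPAT, and normal goat IgG for HINFP. The labels give no treatment and no number of cultures. With 1 library per factor and line, no value below has a replicate, and differences between the lines cannot be told apart from differences between libraries.

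E2F1 is a transcription factor that the retinoblastoma protein holds in check until cells commit to S phase, when it activates genes for DNA replication and the cell cycle. It binds DNA through a GC-rich core next to a run of T, and its sites usually lie close to transcription start sites. EZH2 is the catalytic subunit of Polycomb repressive complex PRC2, and SUV39H1 methylates histone H3 in heterochromatin. UBE2T is the ubiquitin-conjugating enzyme of the Fanconi anemia DNA repair pathway. FAM111A is a protease that acts at replication forks, and CDCA4 is a nuclear protein with a SERTA domain.

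The promoter sequences are shown so that the strings searched for E2F sites can be seen in place. They are RefSeq sequences of GRCh38.p14, read 5′ to 3′ on the strand of the gene from 250 bases before the annotated start to 30 after it, and they were not lifted to NCBI36. All 5 genes had windows, and EZH2, SUV39H1 and FAM111A had a second start 806, 1180 and 2006 bp away from the first. For these genes the window with an E2F string or, for SUV39H1, the more GC-rich window is given. Capitals mark E2F strings. The windows are chr7:148884262-148884541 on the minus strand for EZH2, chrX:48696484-48696763 on the plus strand for SUV39H1, chr1:202341907-202342186 on the minus strand for UBE2T, chr11:59144612-59144891 on the plus strand for FAM111A and chr14:105021054-105021333 on the minus strand for CDCA4.
EZH2: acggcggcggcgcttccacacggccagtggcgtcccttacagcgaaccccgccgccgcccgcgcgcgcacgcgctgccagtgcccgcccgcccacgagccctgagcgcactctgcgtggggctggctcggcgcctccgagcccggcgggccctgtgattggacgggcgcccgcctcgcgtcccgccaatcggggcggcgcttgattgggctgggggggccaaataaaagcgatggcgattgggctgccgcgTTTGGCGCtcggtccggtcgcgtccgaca
SUV39H1: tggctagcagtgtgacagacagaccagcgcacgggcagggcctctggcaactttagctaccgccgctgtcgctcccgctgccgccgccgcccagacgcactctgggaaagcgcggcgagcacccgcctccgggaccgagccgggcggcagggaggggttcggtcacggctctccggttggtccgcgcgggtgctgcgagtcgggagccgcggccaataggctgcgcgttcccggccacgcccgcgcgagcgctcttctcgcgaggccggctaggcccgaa
UBE2T: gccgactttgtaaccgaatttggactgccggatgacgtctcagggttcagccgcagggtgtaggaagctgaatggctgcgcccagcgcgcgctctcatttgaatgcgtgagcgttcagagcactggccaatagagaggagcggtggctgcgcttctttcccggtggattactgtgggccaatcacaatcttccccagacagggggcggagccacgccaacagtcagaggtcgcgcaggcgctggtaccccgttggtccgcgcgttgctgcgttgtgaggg
FAM111A: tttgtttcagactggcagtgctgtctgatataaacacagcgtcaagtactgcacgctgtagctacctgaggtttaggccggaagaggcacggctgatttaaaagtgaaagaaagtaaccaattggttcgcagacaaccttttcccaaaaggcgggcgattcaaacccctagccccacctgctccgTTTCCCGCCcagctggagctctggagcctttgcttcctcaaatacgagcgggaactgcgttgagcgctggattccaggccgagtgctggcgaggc
CDCA4: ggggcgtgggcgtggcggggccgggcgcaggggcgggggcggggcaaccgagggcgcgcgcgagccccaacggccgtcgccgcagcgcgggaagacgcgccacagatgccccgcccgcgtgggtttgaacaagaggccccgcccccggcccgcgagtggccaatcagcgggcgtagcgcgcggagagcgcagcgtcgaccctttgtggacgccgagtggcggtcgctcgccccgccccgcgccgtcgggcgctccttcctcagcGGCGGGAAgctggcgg

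The EZH2 window held TTTGGCGC, from the second to the ninth base of the transcript. In the FAM111A window TTTCCCGC lay 65 to 58 bases before the start, and GGCGGGAA on the other strand overlapped it, 64 to 57 bases before the start. The CDCA4 window held GGCGGGAA, which begins 15 bases into the transcript. The strings TTTCGCGC, TTTGGCGC, TTTCCCGC and TTTGGCGG were searched on both strands of 300 bases per start, and GGCGGGAA was added after the sequences had been seen. Any of the first 4 strings was found in 3.35% of 35116 RefSeq windows and any of the 5 strings in 5.64%. Counted by gene, 4.05% of 27305 genes held any of the 4 strings and 6.76% any of the 5, while 2 of the 5 promoters (EZH2 and FAM111A) held one of the 4 and CDCA4 made 3 with the added string. The genes behind these shares were not matched to the 5 promoters for GC content, and no test was made. No such string was in the UBE2T or SUV39H1 windows, which says only that these letters were not within them. In hTERT-RPE1 and U2OS cells the E2F1 summits lay 388 and 496 bp from the set position at EZH2 and 367 and 380 bp at CDCA4. They lay 264 and 247 bp away at SUV39H1, 127 bp in both lines at UBE2T, and 7 and 2 bp at FAM111A. Whether any string lies under a summit was not determined.

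CCAAT, the core of the site bound by the factor NF-Y, was found on either strand in a window of all 5 genes. It occurred 4 times at EZH2, 2 times each at UBE2T and FAM111A, and once each at SUV39H1 and CDCA4. CCAAT was in 34.6% of all windows. GGGCGG, the GC box, was also present at all 5 genes and in 15786 of the 35116 windows. TTTGAA, a form of the element that cell cycle genes carry for the DREAM and MuvB complexes, was found at UBE2T, FAM111A and CDCA4 and in 15.2% of windows. The shares of these 3 strings are per window, while the 5 genes were counted by gene. EZH2, SUV39H1 and FAM111A had 2 windows each, so that the numbers are not in the same unit.

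Of 28 partner or family genes of the 5 proteins, 26 had RefSeq windows, and 7 of these held one of the 4 E2F strings, beside 4.05% of all 27305 genes. They were SUZ12 and EZH1 of the 6 PRC2 genes, the heterochromatin protein genes CBX3 and CBX5 of the 7 genes for methylation of histone H3 and its readers, FANCC and FANCD2 of the 9 matched Fanconi anemia genes, and SERTAD4 of the 4 SERTA domain genes. These are sequence matches, and binding at these genes was not analysed here. The share over all genes was not matched for GC content, and no test was made.

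At each promoter the region with most ChIP sequences was taken. Its raw ratio is the number of ChIP sequences divided by that of IgG sequences, with 1 added to each. A region was called significant when its deposited p-value was below 0.00001 and its fold change exceeded 2. E2F1 was significant at all 5 promoters in both lines, where 0.707% of the listed E2F1 regions of hTERT-RPE1 cells and 0.748% of those of U2OS cells were. The promoters were chosen on E2F1, so that these calls are a description. Intervals are exact 95% Clopper-Pearson intervals turned into a ratio of ChIP to IgG sequences, and they cover counting error only.

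At EZH2, 174 E2F1 and 11 IgG sequences were counted in hTERT-RPE1 cells, in a region at chr7:148212138-148213053 with its summit at 148212735. The raw ratio was 14.6, and the interval of ChIP to IgG ran from 8.62 to 32.3. In U2OS cells 49 E2F1 sequences stood beside a single IgG sequence at chr7:148212544-148213035, a raw ratio of 25 with an interval from 8.39 to 1974. The U2OS region was shorter, 492 against 916 bp, and a second region 35 bases before it had 12 ChIP and 1 IgG sequences and was not significant. By the region with most ChIP sequences, EZH2 had the highest E2F1 count of the 5 promoters in hTERT-RPE1 cells and the lowest in U2OS cells. Summed over the regions of the window, CDCA4 had more than EZH2 in hTERT-RPE1 cells, 192 against 174.

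At SUV39H1 the lines differed most in the raw ratio. In hTERT-RPE1 cells 52 E2F1 and 0 IgG sequences fell at chrX:48440247-48440656, with a raw ratio of 53. With IgG set to a floor of 3 counts in that region, E2F1 was 17.3-fold higher than IgG, a value that depends on the floor. In U2OS cells 67 E2F1 and 16 IgG sequences fell at chrX:48439893-48440643, and the raw ratio was 4, with an interval from 2.40 to 7.74. SUV39H1 had the fewest E2F1 sequences of the 5 promoters in hTERT-RPE1 cells but the highest raw ratio.

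The SUV39H1 regions were drawn differently in the 2 lines. The hTERT-RPE1 list had another region 100 bases before the significant one, with 33 ChIP and 14 IgG sequences, and the U2OS region shared 254 bases with it. Summed over both regions, hTERT-RPE1 cells had 85 E2F1 and 14 IgG sequences and a raw ratio of 5.73. The contrast between the lines was then 1.43, where the single regions gave 13.25 (hTERT-RPE1 over U2OS).

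At UBE2T, hTERT-RPE1 cells had 93 E2F1 and 9 IgG sequences at chr1:200577557-200578050, a raw ratio of 9.4 with an interval from 5.22 to 23.3. U2OS cells had 142 and 4 at chr1:200577602-200578058, a raw ratio of 28.6 with an interval from 13.6 to 132. Both regions were short, 494 and 457 bp, and their summits lay on the same base, 200577844. UBE2T was the only promoter of the 5 where both the pile at the summit and the ChIP count were higher in U2OS cells and the raw ratio was too.

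At FAM111A, 157 E2F1 and 11 IgG sequences were counted in hTERT-RPE1 cells at chr11:58668392-58669093, with a raw ratio of 13.2 and an interval from 7.76 to 29.2. U2OS cells had 138 and 4 at chr11:58668554-58669488, with a raw ratio of 27.8 and an interval from 13.2 to 128. The summits were at 58668857 and 58668852. FAM111A had the highest pile of E2F1 reads of the 5 promoters in hTERT-RPE1 cells, 136 reads at the summit, and 107 in U2OS cells.

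At CDCA4, 169 E2F1 and 16 IgG sequences gave a raw ratio of 10 in hTERT-RPE1 cells at chr14:104558297-104558934, with an interval from 6.32 to 18.9. In U2OS cells 106 E2F1 and 3 IgG sequences gave 26.75, with an interval from 11.8 to 174, in a region of 663 bp with its summit at 104558618. A second hTERT-RPE1 region, 50 bases before the first, had 23 and 10 sequences and was not significant. The order of the raw ratios in U2OS cells was UBE2T, FAM111A, CDCA4, EZH2 and SUV39H1, and the intervals of the first 4 overlapped widely. In hTERT-RPE1 cells the order was SUV39H1, EZH2, FAM111A, CDCA4 and UBE2T, with overlapping intervals for the 4 that had one.

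**Figure D1:**
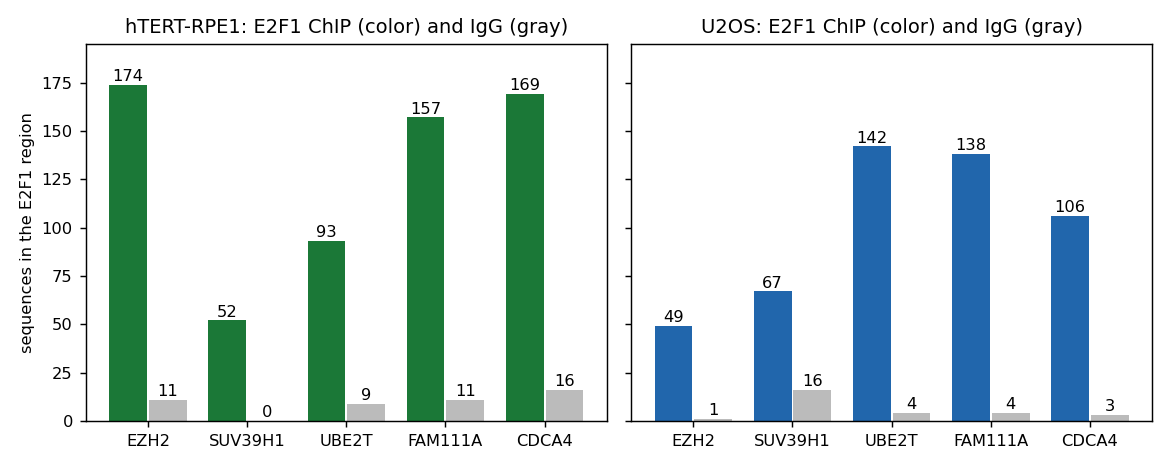
E2F1 ChIP sequences (colored bars) and IgG sequences (gray bars) counted in the E2F1 region with most ChIP sequences at each promoter, in hTERT-RPE1 cells (left) and U2OS cells (right), on linear axes from 0. IgG ran from 0 at SUV39H1 to 16 at CDCA4 in hTERT-RPE1 cells and from 1 at EZH2 to 16 at SUV39H1 in U2OS cells.

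The 5 promoters were chosen as the strongest E2F1 sites, and the ranks show where each stood. Among the 938 significant E2F1 regions of U2OS cells, UBE2T, FAM111A, CDCA4 and EZH2 ranked 1, 2, 3 and 4 by raw ratio, and among the 1516 of hTERT-RPE1 cells SUV39H1 ranked 1. The values just inside were 25 at EZH2 in U2OS cells and 53 at SUV39H1 in hTERT-RPE1 cells. Just outside, U2OS cells had chr2:130655441-130655954 with 138 ChIP and 5 IgG sequences and a raw ratio of 23.2, and hTERT-RPE1 cells had chr2:131966919-131967293 with 57 and 1 and a raw ratio of 29. In the other line the ranks were 172 for EZH2, 333 for UBE2T, 181 for FAM111A and 305 for CDCA4 in hTERT-RPE1 cells, and 589 for SUV39H1 in U2OS cells.

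Ranks by other columns of the lists were different. By p-value, from the lowest, EZH2 ranked 3 in hTERT-RPE1 cells, FAM111A 9 and CDCA4 11, while UBE2T ranked 68 and SUV39H1 100. In U2OS cells the ranks by p-value were 4 for UBE2T, 6 for FAM111A, 17 for CDCA4, 96 for EZH2 and 247 for SUV39H1. By the pile at the summit, FAM111A and CDCA4 ranked 6 and 7 in hTERT-RPE1 cells, and UBE2T ranked 11 in U2OS cells. By ChIP sequences per kb of region, EZH2, SUV39H1, UBE2T, FAM111A and CDCA4 ranked 17, 101, 19, 10 and 6 in hTERT-RPE1 cells, and 170, 234, 3, 36 and 28 in U2OS cells. FAM111A and CDCA4 were thus within the first 36 regions of both lines by height and by ChIP sequences per kb, and SUV39H1 was past rank 100 by both in both lines.

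E2F1 was compared between the lines at the same promoter, as values side by side with no test, since E2F1 chose the promoters. The raw ratio was higher in U2OS cells at 4 promoters, 1.71-fold at EZH2, 3.04-fold at UBE2T, 2.11-fold at FAM111A and 2.675-fold at CDCA4. Counting intervals of this contrast (U2OS over hTERT-RPE1) were taken on ChIP over IgG with nothing added to the counts. They ran from 0.43 to 136 at EZH2 and from 0.92 to 15.6 at UBE2T. At FAM111A the interval ran from 0.69 to 10.6, and at CDCA4 from 0.92 to 18.3. All 4 intervals included equal values in the lines, so that they do not separate the lines at these promoters. At SUV39H1 the raw ratio was higher in hTERT-RPE1 cells, where IgG was 0 and no such interval is given. With that IgG count set to the floor of 3, the contrast (hTERT-RPE1 over U2OS) was 3.31 in place of 13.25. At all 5 promoters the higher ratio was in the line where the promoter ranked among the first 4, which the choice itself favors.

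Without IgG the order of the lines was different. The pile at the summit in hTERT-RPE1 and U2OS cells was 88 and 39 reads at EZH2, 48 and 46 at SUV39H1, 84 and 126 at UBE2T, 136 and 107 at FAM111A, and 132 and 88 at CDCA4, so that it was higher in hTERT-RPE1 cells at 4 of 5 promoters. ChIP sequences per kb were also higher there at 4 of 5, by 1.91-fold at EZH2, 1.42-fold at SUV39H1, 1.52-fold at FAM111A and 1.66-fold at CDCA4, and stood at 0.606 of the U2OS value at UBE2T. In all 541 overlapping pairs of significant E2F1 regions, the hTERT-RPE1 value over the U2OS value had a median of 1.16 for the pile and 1.15 for the raw ratio. The pile and the ChIP sequences are not scaled for the depth of the libraries, which the lists do not give.

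IgG is the denominator of the raw ratio, so that a low IgG count by itself raises the ratio. At all 5 promoters the line with the higher raw ratio had fewer IgG sequences per kb in the region. The choice of strong E2F1 sites favors this, so that the count of 5 is a description only. In hTERT-RPE1 cells IgG per kb was 12.0 at EZH2, 0 at SUV39H1, 18.2 at UBE2T, 15.7 at FAM111A and 25.1 at CDCA4, beside a median of 11.6 over all significant E2F1 regions. In U2OS cells it was 2.03, 21.3, 8.75, 4.28 and 4.52 in the same order, beside a median of 14.4. The part of IgG in the difference between the lines was not tested. With 5 in place of 1 added to each count, the contrast of EZH2 turned to 1.24 (hTERT-RPE1 over U2OS), and the other 4 kept their direction.

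**Figure D2:**
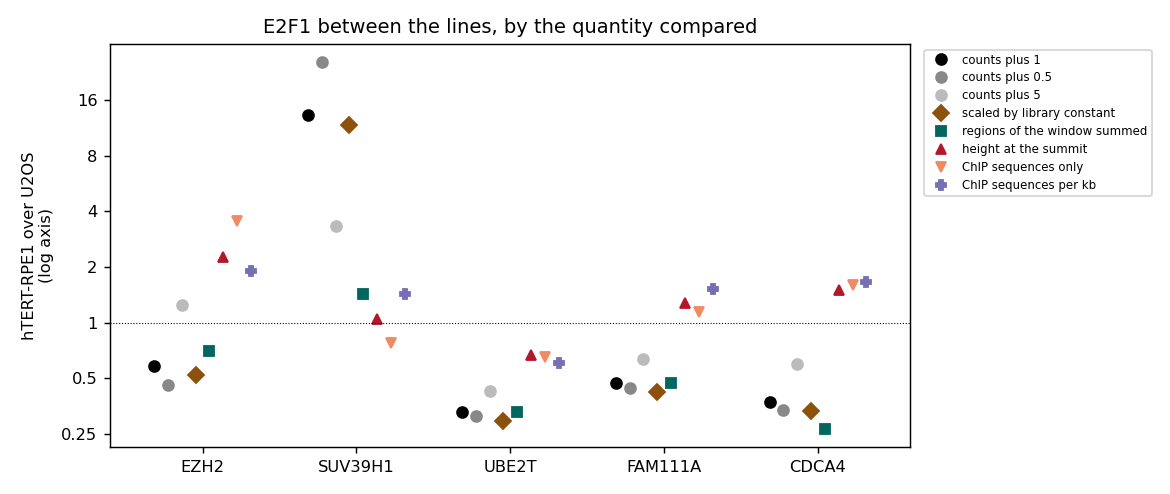
E2F1 in hTERT-RPE1 over U2OS cells at each promoter (log axis), with a symbol for each quantity compared. Circles, diamonds and squares are ratios to IgG and lie below 1 at UBE2T, FAM111A and CDCA4, while the pile at the summit, the ChIP sequences and the ChIP sequences per kb lie above 1 at EZH2, FAM111A and CDCA4.

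Among the 541 pairs of E2F1 regions significant in both lines, the raw ratio was higher in hTERT-RPE1 cells in 328, or 60.6%. SUV39H1 had the highest ratio of the lines of all pairs (13.25), while UBE2T ranked 6, CDCA4 9, FAM111A 27 and EZH2 58 from the lowest, which was 0.199. Ordered by the lower of the raw ratios of the lines, EZH2 was first, FAM111A second, CDCA4 ranked 7, UBE2T 12 and SUV39H1 262. EZH2 and FAM111A were therefore the pairs with the highest ratio reached in both lines, a description only, since E2F1 chose the promoters. With 5 added to each count, the lower ratio was 9 at EZH2 (U2OS) and 10.1 at FAM111A (hTERT-RPE1), so that their order turned.

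**Figure D3:**
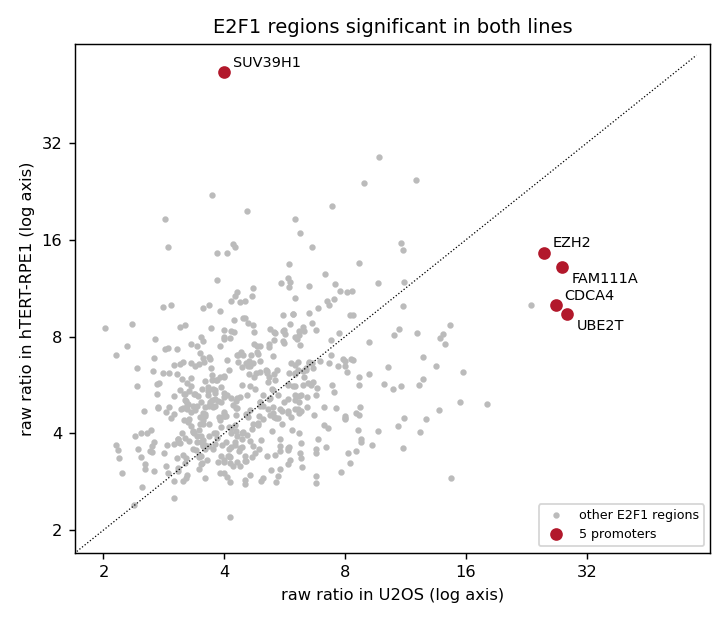
Raw ratio of E2F1 in U2OS cells (x axis, log) and hTERT-RPE1 cells (y axis, log) for the 541 pairs of overlapping significant regions, with the 5 promoters in red and equal values on the dotted line. EZH2, FAM111A, CDCA4 and UBE2T lie to the right of all other pairs, with raw ratios from 25 to 28.6 in U2OS cells, and SUV39H1 lies above all, with 53 on the hTERT-RPE1 axis and 4 on the U2OS axis.

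The regions nearest to the 5 promoters in this plot carry no gene name in the lists. By distance between the pair of log2 raw ratios and the median pair of the 5, over 513 pairs with summits within 200 bp, the first was chr2:130655318-130655841 in hTERT-RPE1 cells at a distance of 0.45, with 79 and 7 sequences there and 138 and 5 in U2OS cells. The next were chr11:64564722-64565974 at 1.06, with raw ratios of 8.71 and 14.6, and chr13:33014468-33015354 at 1.16, with raw ratios of 8.15 and 14. SUV39H1 itself was at a distance of 3.40, and 436 pairs outside the 5 promoters were nearer, counted without the limit on summit distance.

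The position of the summit was not used in choosing the promoters beyond the 2 kb window. The E2F1 summits of the lines were 0 bp apart at UBE2T, 5 bp at FAM111A, 13 bp at CDCA4, 17 bp at SUV39H1 and 108 bp at EZH2. Over all 541 pairs the median was 24 bp, with quartiles of 9 and 51 bp, and 45.5% of pairs were within 20 bp, so that 4 of the 5 promoters were below the median. At EZH2 the pile was also the broadest in hTERT-RPE1 cells, where 50.6% of the E2F1 sequences of the region covered the summit if each is counted once in the pile. This share was 92.3% at SUV39H1, 90.3% at UBE2T, 86.6% at FAM111A and 78.1% at CDCA4 in hTERT-RPE1 cells, beside a median of 57.8% and an upper quartile of 71.8% over all significant regions. In U2OS cells it ran from 68.7% at SUV39H1 to 88.7% at UBE2T, beside a median of 60% and an upper quartile of 73.6%. The pairs and regions set beside the promoters here were not matched for the strength of E2F1, which chose the promoters. These summit distances and shares are therefore a description only.

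**Figure D4:**
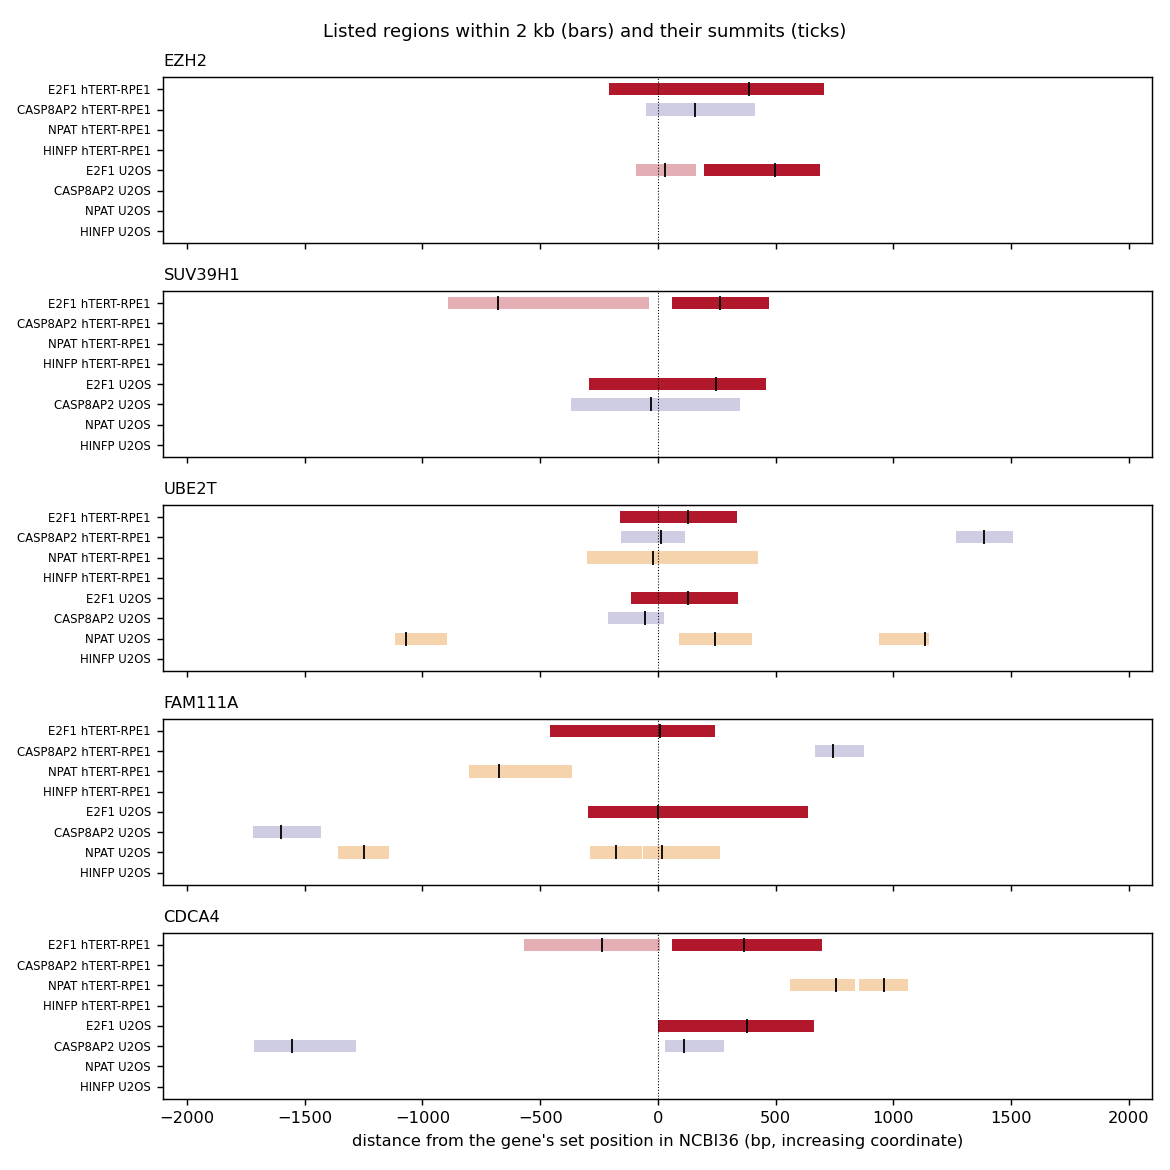
Listed regions within 2 kb of each promoter's set position in the 8 libraries, as distance along NCBI36 (x axis, bp), with bars for regions, black ticks for summits and full color for significant regions. Only E2F1 bars are in full color, 1 per line at each gene, and the summits of the lines are 0 bp apart at UBE2T and 108 bp apart at EZH2.

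The ChIP sequences of CASP8AP2, NPAT and HINFP were not used in choosing the promoters. The ratios of CASP8AP2 and NPAT are still not independent of the choice, since they share the IgG library of E2F1. CASP8AP2 is a large nuclear protein of histone locus bodies, NPAT is the coactivator of replication-dependent histone genes, and HINFP is a zinc finger protein that binds histone gene promoters. None of the 3 had a significant region at any of the 5 promoters in either line. Among all listed regions of hTERT-RPE1 cells, 0.112% were significant for CASP8AP2, 0.259% for NPAT and 0.393% for HINFP. The shares of U2OS cells were 0.0927%, 0.108% and 0.5%. A count of 0 of 5 is therefore near what the lists give in general.

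Regions below the threshold were listed for CASP8AP2 and NPAT in 12 of 20 combinations of gene and library. They had 8 to 33 ChIP sequences, piles of 8 to 14 reads and raw ratios from 0.9 to 10, with a median of 2.75 over the 19 regions. The interval of ChIP to IgG lay above 1 in 7 of the 18 regions with an IgG sequence. Over all listed regions of these libraries with an IgG sequence the share was 23.0% to 29.9%, and no test was made of the difference. The choice on E2F1 favors a low count of the shared IgG, so that the 7 of 18 are not independent of it. For comparison, the median raw ratio of all listed regions was between 2 and 2.4 in the CASP8AP2 and NPAT libraries. HINFP had no listed region at any of the 5 promoters, which means only that no pile reached 8 reads.

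CASP8AP2 was listed at EZH2 in hTERT-RPE1 cells alone, with 17 ChIP and 9 IgG sequences. At SUV39H1 it was listed in U2OS cells alone, with 21 and 13. At UBE2T the region with most sequences had 11 ChIP and 7 IgG sequences in hTERT-RPE1 cells, against 12 and 4 in U2OS cells. At FAM111A the counts were 8 and 9, against 11 and 5. The raw ratios of these regions were at most 2.6. A second CASP8AP2 region at UBE2T in hTERT-RPE1 cells, with its summit 1386 bp from the set position, had 9 and 1. Its raw ratio was 5, with an interval from 1.25 to 394, and it was not significant. At CDCA4 CASP8AP2 was listed in U2OS cells, in 2 regions. The weaker, with 10 and 3 and a raw ratio of 2.75, lay wholly inside the E2F1 region, with its summit 271 bp from the E2F1 summit. The other had 20 and 3, a raw ratio of 5.25 and a summit 1936 bp from the E2F1 summit. Its p-value as deposited, 0.000304, was the lowest for CASP8AP2 at these genes.

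NPAT was listed at UBE2T and FAM111A in both lines. At UBE2T it had 33 ChIP and 11 IgG sequences in hTERT-RPE1 cells, with a raw ratio of 2.83 and an interval from 1.48 to 6.58, and 13 and 2 in U2OS cells, with a raw ratio of 4.67 and an interval from 1.47 to 59.3. At FAM111A it had 19 and 2 in hTERT-RPE1 cells, a raw ratio of 6.67 with an interval from 2.29 to 84.1, in a region 681 bp from the E2F1 summit by its own summit. The p-value as deposited, 0.000117, was the lowest of any other factor at the 5 promoters. In U2OS cells NPAT had 12 and 3 at FAM111A, 15 bp from the E2F1 summit. Another NPAT region there had 9 ChIP sequences and no IgG, which is 3-fold the floor of 3 counts and depends on that floor. At CDCA4 it was listed in hTERT-RPE1 cells with 11 and 9 sequences, and at EZH2 and SUV39H1 in neither line.

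**Figure D5:**
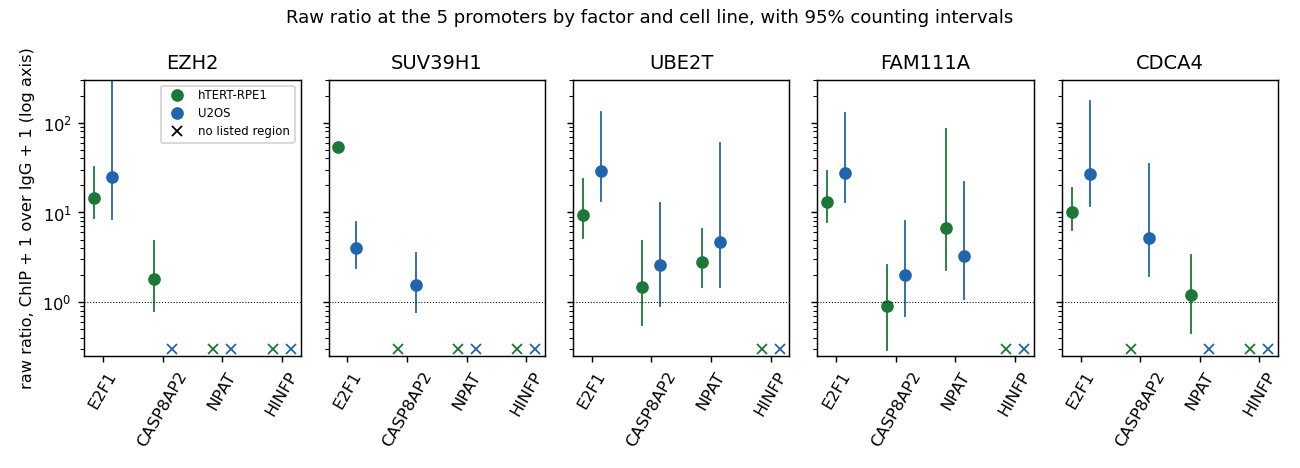
Raw ratio (log axis) of the region with most ChIP sequences for each factor at each promoter, in hTERT-RPE1 cells (green) and U2OS cells (blue), with lines for the exact 95% counting interval of ChIP to IgG and crosses where no region was listed. E2F1 has the highest raw ratio at each promoter in each line, which the choice on E2F1 favors. Some intervals of E2F1 overlap those of another factor, as for NPAT at UBE2T and FAM111A in both lines. No E2F1 interval is drawn for SUV39H1 in hTERT-RPE1 cells, where IgG was 0, and that of EZH2 in U2OS cells runs past the axis to 1974.

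Where another factor was listed, at least 1 of its regions overlapped the E2F1 region in 10 of the 12 combinations. Its region with most ChIP sequences overlapped in 9, and the summit of that region was 15 to 1936 bp from the E2F1 summit, with a median of 252.5 bp. Counted within 2 kb of the E2F1 summit, CASP8AP2 was listed at 3 of 5 promoters for hTERT-RPE1 and 4 of 5 for U2OS cells, beside 56.9% and 83.6% of all significant E2F1 regions. NPAT was listed at 4 of 5 and 2 of 5, beside 66.8% and 87.0%, and SUV39H1 is the gene that this count adds in hTERT-RPE1 cells, through a region with 10 and 4 sequences that lay outside the window of its set position. For HINFP it was 0 of 5 in each line, beside 28.7% and 34.8%. Regions of these factors that were significant lay at 0.462%, 1.45% and 0.396% of the significant E2F1 regions in hTERT-RPE1 cells for CASP8AP2, NPAT and HINFP, and at 1.49%, 2.56% and 0.640% in U2OS cells. With 5 promoters, these counts were not set against the shares by a test.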

How the data were processed

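E2F1, CASP8AP2, NPAT and HINFP were precipitated with 5 µg of antibody and sequenced with 1 library per factor and line. The authors mapped reads to NCBI36 (hg18 in the submitters' processing notes) and called peaks. The aligner, the peak caller and the treatment of duplicate reads are not given in the sources used here.

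The counts of ChIP and IgG sequences per region were deposited as raw whole numbers. The deposited signal is the height of the pile of reads at the summit, at least 8 in each list. The fold change deposited by the authors is a ratio of ChIP to IgG sequences, with 1 added to each, scaled by a constant of the library. The p-value, as deposited, compares 1 ChIP with 1 IgG library and is not adjusted. These constants gave a depth of E2F1 over IgG of 1.06 in hTERT-RPE1 and 0.942 in U2OS cells. Total reads per library are unknown.

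Significance took the limits in the methods, 0.00001 for the p-value (read as an upper limit) and 2 for the fold change. Intervals are 95% Clopper-Pearson. IgG libraries were used through the IgG counts of the ChIP lists. Regions with identical ends in lists of the same IgG held the same IgG counts, so that IgG is shared by E2F1, CASP8AP2 and NPAT. The genes named were the 5 promoters and fixed lists of partner genes, other regions being given by position: those ranked next to the 5 promoters and the 3 nearest in raw ratio. Members and lists were chosen with earlier results of these data known. No annotation of NCBI36 was used, so that regions were not assigned to exons or introns, and it was not determined which GRCh38.p14 start corresponds to a set position. Whether list coordinates count from 0 or 1 is not given in the sources used here, and they are printed as deposited. Alternatives were other windows, thresholds, pseudocounts, scaling, height and overlap. The code was tested on simulated data. The tools were scipy 1.17.1, pandas 2.3.3 and numpy 2.4.6 under Python 3.11.15, and matplotlib 3.10.9 for plots.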

Additional observations from a re-analysis of the deposited data

How the results depend on the processing

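No paired analysis was possible because each factor and line has 1 library. The E2F1 contrast of the lines (hTERT-RPE1 over U2OS) kept its direction with 0.5 added to the counts and with the library constant at all 5 promoters. With 5 added it turned at EZH2, to 1.24. With the regions of a window summed, SUV39H1 moved to 1.43, and with its IgG count of 0 set to 3 it was 3.31. With the pile at the summit it was 2.26 at EZH2, 1.27 at FAM111A and 1.5 at CDCA4, all turned, and 1.04 at SUV39H1. With ChIP sequences alone it was 3.55, 1.14 and 1.59 at these 3 genes and 0.776 at SUV39H1, all 4 turned. With ChIP sequences per kb it was 1.91, 1.52 and 1.66 at the 3 genes and 1.42 at SUV39H1. UBE2T kept its direction under every alternative run. The summed regions, the IgG floor, ChIP sequences alone and ChIP sequences per kb were chosen after seeing the data.

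The number of promoters with a significant E2F1 region was 5 in each line with windows of 1 and 5 kb and with a p-value under 0.0001. In U2OS cells it was 4 with a p-value under 1e-10 and 4 with a fold change above 5, where SUV39H1 was lost both times. No other factor gained a significant region. The ratio of SUV39H1 in hTERT-RPE1 cells rests on an IgG count of 0 and that of EZH2 in U2OS cells on an IgG count of 1, and there are no replicates.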

Other observations

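Just beyond the 2 kb window, between 2 and 5 kb from a set position, E2F1 regions were listed at 4 of the genes. FAM111A had a weak E2F1 region at nearly the same place in both lines, with 41 ChIP and 13 IgG sequences at chr11:58666516-58667371 in hTERT-RPE1 cells and 27 and 15 at chr11:58666614-58667121 in U2OS cells. At CDCA4, hTERT-RPE1 cells had 19 E2F1 and 1 IgG sequences at chr14:104560185-104560536, a raw ratio of 10 with a p-value as deposited of 1.78e-05, just short of the threshold. None of these regions was significant.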
